A study of Mus musculus with 5 samples.

Results

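The pocket proteins, the MuvB core and its activators B-Myb and FoxM1 were followed in 6DT1 cells in which *Arid4b* had been knocked down. The 9 genes were chosen by name as the retinoblastoma family (*Rb1*, *Rbl1*, *Rbl2*), 4 subunits of the MuvB core (*Lin9*, *Lin37*, *Lin52*, *Lin54*), *Mybl2* and *Foxm1*, and all 9 were measured among 19938 genes. 6DT1 is a highly metastatic mouse mammary carcinoma cell line, and RNA from 5 lines was hybridised to 1 Affymetrix Mouse Gene 1.0 ST array each. The *Arid4b* knockdown cohort (n = 2 lines) held lines H3 and H4, transduced with lentiviral pLKO.1 shRNAs against *Arid4b* and selected with puromycin. The control cohort (n = 3 lines) was made up of line H5, transduced with a further *Arid4b* shRNA that left ARID4B protein at the normal level, the line with the scrambled shRNA in the same vector, and untransduced cells. H5 and the scrambled control were selected with puromycin and the untransduced cells were not. Each transduced line was a pool of clones, and each knockdown line carried its own hairpin. The labels give ARID4B protein by densitometry, on a scale where the scrambled control is 1.00, as 0.19 (H3) and 0.15 (H4) in the knockdown lines, against 1.02 (H5) and 1.09 (untransduced) in the other control lines.

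Pocket proteins bind E2F transcription factors and keep genes of DNA replication and mitosis silent until cyclin-dependent kinases phosphorylate them. In resting cells p107 or p130, encoded by *Rbl1* and *Rbl2*, joins E2F4, its DP partner and the MuvB core in the DREAM complex, which represses cell cycle genes. When cells enter the cycle MuvB leaves the pocket protein, binds B-Myb (*Mybl2*) and later FoxM1, and then activates the genes of G2 and mitosis through the CHR element, a short promoter motif that LIN54 contacts. ARID4B and its paralog ARID4A are subunits of the mSIN3A histone deacetylase complex, and ARID4A is known to bind the retinoblastoma protein.

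Promoter sequences from RefSeq (GRCm38.p6, 250 bases before to 50 bases after a start site) matched 6 of the 9 genes in 7 windows, and *Rb1*, *Lin9* and *Foxm1* had no entry. Windows are shown for *Rbl1*, *Mybl2* and *Lin54*, lower in both knockdown lines than in any control line, and for *Lin52* and *Lin37*, which overlapped between the cohorts, so that their start sites can be compared. Capitals mark matches on either strand to 3 sets of letters. The CHR element was searched as TTTGAA and also as TTCGAA. The E2F element was searched as TTCCCGC, then as the variant TTGGCGC, then as the variant TTCGCGC and finally as the variant TTGCCGC. An E2F core with the letters GGCGGGA was added after the sequences had been seen, and on the opposite strand it overlaps TTCCCGC where a C follows.
Rbl1 (chr2:157204485-157204784, minus strand): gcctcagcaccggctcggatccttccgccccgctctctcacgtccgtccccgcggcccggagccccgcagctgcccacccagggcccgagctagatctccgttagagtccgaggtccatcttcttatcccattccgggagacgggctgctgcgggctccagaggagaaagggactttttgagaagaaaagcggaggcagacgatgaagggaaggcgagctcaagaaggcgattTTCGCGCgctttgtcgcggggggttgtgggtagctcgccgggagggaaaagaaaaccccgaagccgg
Mybl2 (chr2:163054385-163054684, plus strand): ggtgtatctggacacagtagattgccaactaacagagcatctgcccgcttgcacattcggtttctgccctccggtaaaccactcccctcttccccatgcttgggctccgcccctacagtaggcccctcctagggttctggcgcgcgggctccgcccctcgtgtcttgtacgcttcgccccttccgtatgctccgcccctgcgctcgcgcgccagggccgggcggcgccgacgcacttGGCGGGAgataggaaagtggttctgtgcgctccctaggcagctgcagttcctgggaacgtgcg
Lin54 (chr5:100498524-100498823, minus strand, the second of its windows): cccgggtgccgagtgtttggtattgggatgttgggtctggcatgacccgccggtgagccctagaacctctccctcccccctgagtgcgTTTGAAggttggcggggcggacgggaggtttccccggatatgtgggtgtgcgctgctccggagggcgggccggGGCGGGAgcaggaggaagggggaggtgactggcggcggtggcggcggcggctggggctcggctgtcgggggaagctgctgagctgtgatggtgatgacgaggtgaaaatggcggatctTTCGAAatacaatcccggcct
Lin52 (chr12:84451258-84451557, plus strand): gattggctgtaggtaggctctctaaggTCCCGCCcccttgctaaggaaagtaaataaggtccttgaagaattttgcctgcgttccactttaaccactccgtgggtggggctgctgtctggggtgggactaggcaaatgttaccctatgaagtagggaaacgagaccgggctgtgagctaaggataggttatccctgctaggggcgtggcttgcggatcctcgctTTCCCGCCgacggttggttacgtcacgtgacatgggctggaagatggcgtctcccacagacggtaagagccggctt
Lin37 (chr7:30559597-30559896, minus strand): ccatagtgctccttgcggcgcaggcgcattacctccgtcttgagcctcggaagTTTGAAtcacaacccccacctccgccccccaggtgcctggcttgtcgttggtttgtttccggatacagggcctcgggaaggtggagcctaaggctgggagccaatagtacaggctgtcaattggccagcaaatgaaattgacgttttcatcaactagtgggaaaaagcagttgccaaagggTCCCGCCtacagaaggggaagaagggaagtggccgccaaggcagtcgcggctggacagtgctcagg
*Rbl1* held TTCGCGC starting 17 bases before the start site, and *Lin52* held TTCCCGC starting 26 bases before it. *Mybl2* held none of the CHR and E2F letters searched first, but held the added core 13 bases before its start site. The added core stood in 4 of the 7 windows. The others were *Lin37* (16 bases before the start), *Lin52* (25 and 223 bases before it) and the *Lin54* window shown (89 bases before it). The CHR letters stood in both *Lin54* windows and in those of *Lin37* and *Rbl2*, among them TTTGAA 162 bases before the start in the *Lin54* window shown and 197 bases before it in *Lin37*. Over all 32851 promoter windows the CHR letters occurred in 19.2%, the E2F letters in 9.57% and the added core in 11.3%. These are matches of letters, and neither binding nor accessibility was measured.

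*Arid4b* mRNA was lower in both knockdown lines than in any control line. Its log2 level was 6.88 (H3) and 7.35 (H4) in the knockdown lines, against 8.24 (H5), 8.34 (scrambled) and 8.36 (untransduced) in the control lines. The H3 array had a median of 6.35 over all probe sets, against 6.24 in H4 and 6.24 to 6.25 in the control lines, and its SD over probe sets was 2.25, against 2.29 in H4 and 2.29 to 2.30 in the control lines. Of markers of the labelled cell type, *Krt8*, *Krt18* and *Gata3* lay at 9.81 or above on every array, whereas *Epcam* lay at 5.75 in H3 and 5.61 on the other arrays and *Cdh1* at 6.05 to 6.16, below the array medians. Of 16 epithelial and mammary markers none was lower and *Foxa1* (log2 fold change 0.23) was higher by the threshold given next. Genes were called by limma at the study's threshold, an unadjusted p under 0.05, and 1517 genes (7.61%) were lower and 866 (4.34%) higher in the knockdown cohort, and these became 2007 and 548 with array medians subtracted and 1262 and 1398 after quantile normalization. No gene passed an adjusted p under 0.05 (smallest 0.147), so that every gene called lower or higher below passed the unadjusted threshold alone. With 1 array per line the p-values measure only how far these lines spread, part of which may be technical, and 5 arrays limit the precision.

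Of the 9 genes 5 fell in the knockdown cohort, none rose and 4 did not pass, beside 7.61% of all genes that fell and 4.34% that rose. The 5 were *Rbl1*, *Lin9*, *Lin54*, *Mybl2* and *Foxm1*, with 1 of 3 pocket protein genes, 2 of 4 MuvB core genes and both activator genes among them. In 5 of the 9, the same 5, both knockdown lines lay below all 3 control lines, an order found in 13.5% of all genes. This order and the calls come from the same values, so that the order adds no separate support. In none of the 9 did both lie above all 3 control lines, as in 13.9% of all genes. The median log2 fold change of the 9 genes was -0.69, beside 0.03 over all genes. RNA came from whole cultures, so that fewer cells in the phases that express these genes and less of their RNA per cell cannot be told apart.

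**Figure D1:**
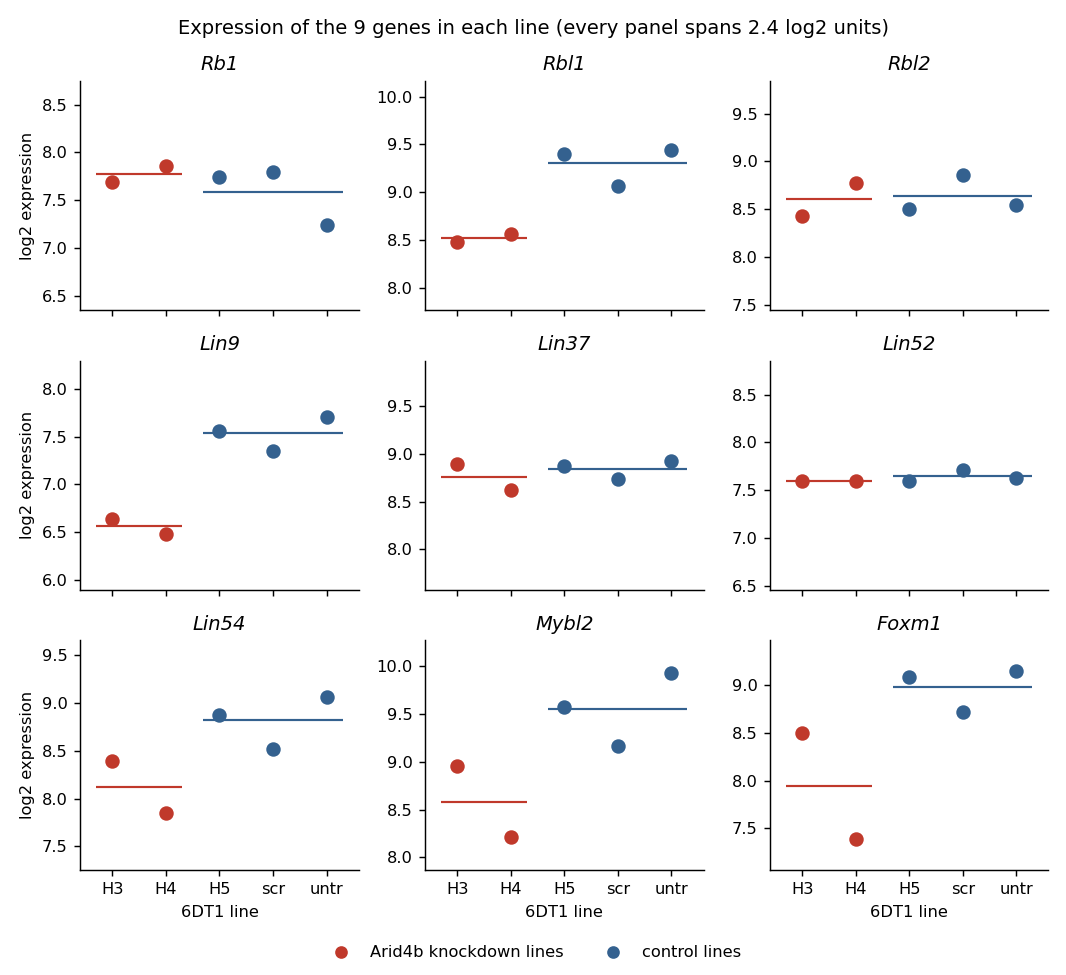
Log2 expression (vertical axis) of the 9 genes in each line, with 1 point per array, knockdown lines in red and control lines in blue, and horizontal lines at the cohort means. Each panel spans the same number of log2 units but has its own origin; H3 and H4 lie below all control lines for *Rbl1*, *Lin9*, *Lin54*, *Mybl2* and *Foxm1*, for *Lin9* at 6.64 and 6.48.

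Of the 3 pocket protein genes *Rbl1* fell, and *Rb1* and *Rbl2* did not pass. *Rbl1*, which encodes p107, the family member that is itself made as cells enter the cycle, was measured at a log2 level of 8.48 (H3) and 8.56 (H4) in the knockdown lines, against 9.40 (H5), 9.06 (scrambled) and 9.44 (untransduced) in the control lines. H3 and H4 thus lay close together, and the gap of 0.50 to the scrambled control, the lowest control line, was wider than the range of 0.38 among the control lines. The knockdown mean was 0.583 of the control level, giving -0.78 as the log2 fold change (standard error 0.13; limma adjusted p = 0.271, Benjamini-Hochberg over all genes). *Rbl1* passed the unadjusted threshold under all 12 alternatives, with log2 fold changes of -0.90 to -0.69.

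*Rb1*, the retinoblastoma tumor suppressor, had 7.69 (H3) and 7.85 (H4) in the knockdown lines, against 7.74 (H5), 7.79 (scrambled) and 7.24 (untransduced) in the control lines. The knockdown lines overlapped both puromycin-selected control lines, and the untransduced cells were lowest of all 5 lines. The log2 fold change was 0.18 (95% interval -0.33 to 0.70), and it was 0.01 without the untransduced cells. *Rbl2*, which encodes p130, the pocket protein of resting cells, had 8.42 (H3) and 8.78 (H4) in the knockdown lines, against 8.50 (H5), 8.86 (scrambled) and 8.54 (untransduced) in the control lines. H3 was the lowest line and the scrambled control the highest, and the log2 fold change was -0.03 (95% interval -0.46 to 0.40), with its sign depending on the setting.

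Within each line the difference between *Rbl1* and *Rbl2* was also compared, which shows only whether both genes changed unequally. Relative to the control mean it was -0.61 (H3) and -0.88 (H4) in the knockdown lines, against 0.23 (H5), -0.46 (scrambled) and 0.24 (untransduced) in the control lines. The scrambled control thus lay nearer to H3 than to the other control lines. The mean difference was -0.75 on the log2 scale, and an exact two-sided permutation test over the 10 ways to set 2 lines against 3 gave p = 0.2, where 0.1 is the smallest p the design allows. With 5 lines this test cannot pass 0.05 whatever the values, so that the difference is a description.

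Of the 4 MuvB core genes *Lin9* and *Lin54* fell. *Lin9*, a core subunit of both the repressing and the activating forms of the complex, was measured at a log2 level of 6.64 (H3) and 6.48 (H4) in the knockdown lines, against 7.56 (H5), 7.35 (scrambled) and 7.71 (untransduced) in the control lines. The gap of 0.71 between H3 and the scrambled control, the lowest control line, was wider than the range of 0.36 among the control lines. The knockdown mean was 0.508 of the control level, giving -0.98 as the log2 fold change (standard error 0.12; limma adjusted p = 0.217, Benjamini-Hochberg over all genes), and the fold change lay between -1.07 and -0.89 and past the unadjusted threshold under all 12 alternatives. *Lin54*, the DNA-binding subunit, had 8.40 (H3) and 7.85 (H4) in the knockdown lines, against 8.87 (H5), 8.52 (scrambled) and 9.06 (untransduced) in the control lines. Here H3 lay 0.12 below the scrambled control, a gap smaller than the range of 0.55 among the control lines, and H4 minus scrambled was -0.67. Its log2 fold change was -0.69 (standard error 0.24; limma adjusted p = 0.383). *Lin54* did not pass without H4 (-0.42), without H5 (-0.67) or without the untransduced cells (-0.57).

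*Lin37* and *Lin52* overlapped between the cohorts. *Lin37*, which DREAM needs for repression, had 8.89 (H3) and 8.63 (H4) in the knockdown lines, against 8.88 (H5), 8.74 (scrambled) and 8.93 (untransduced) in the control lines. H3 lay among the control lines and H4 below them, with a log2 fold change of -0.09 (95% interval -0.37 to 0.19). *Lin52*, the subunit whose phosphorylation by DYRK1A lets MuvB hold a pocket protein, had 7.60 (H3) and 7.60 (H4) in the knockdown lines, against 7.60 (H5), 7.71 (scrambled) and 7.63 (untransduced) in the control lines. The deposited value was the same in H3, H4 and H5, and the log2 fold change was -0.05 (95% interval -0.18 to 0.09). A second probe set of *Lin52* had 7.64 (H3) and 7.63 (H4) in the knockdown lines, against 7.54 (H5), 7.64 (scrambled) and 7.63 (untransduced) in the control lines, so that neither probe set separated the cohorts. *Rbbp4*, a histone chaperone that is the remaining MuvB subunit, and *Dyrk1a* had log2 fold changes of -0.14 and -0.06, and neither passed the threshold, although in *Rbbp4* both knockdown lines lay below all control lines by a gap of 0.0046.

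*Mybl2* and *Foxm1*, which encode the activators that join MuvB in cycling cells, had the lowest values in H4. The log2 level of *Mybl2* was 8.96 (H3) and 8.21 (H4) in the knockdown lines, against 9.58 (H5), 9.16 (scrambled) and 9.93 (untransduced) in the control lines. H3 lay 0.20 below the scrambled control, while the control lines themselves spanned 0.77. The knockdown mean was 0.51 of the control level, giving -0.97 as the log2 fold change (standard error 0.33; limma adjusted p = 0.377). *Mybl2* did not pass without H4 (-0.60), without H5 (-0.96) or without the untransduced cells (-0.78).

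*Foxm1* had a log2 level of 8.50 (H3) and 7.39 (H4) in the knockdown lines, against 9.09 (H5), 8.72 (scrambled) and 9.14 (untransduced) in the control lines. H4 minus H3 was -1.11 and H4 minus scrambled was -1.32, whereas H3 lay 0.22 below the scrambled control, a gap smaller than the range of 0.43 among the control lines. The knockdown mean was 0.488 of the control level, giving -1.04 as the log2 fold change (standard error 0.36; limma adjusted p = 0.391). *Foxm1* did not pass without H4 (-0.48), without H5 (-0.98), without the scrambled control (-1.17) or without the untransduced cells (-0.96), and with H4 as the only knockdown line it was -1.59. After quantile normalization, which equalises the spread of the arrays, *Foxm1* (-0.94) and *Lin54* (-0.60) did not pass, and in the unmoderated equal-variance test *Lin54*, *Mybl2* and *Foxm1* did not pass.

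**Figure D2:**
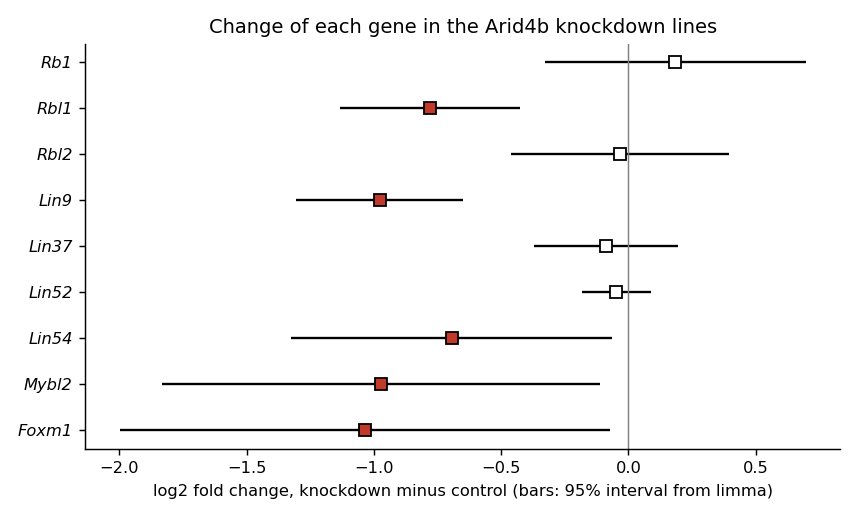
Log2 fold change of each gene in the knockdown cohort against the control cohort (squares, horizontal axis) with the 95% interval from limma (bars); filled squares passed an unadjusted p under 0.05. The intervals of *Lin9* (-1.30 to -0.65) and *Rbl1* (-1.13 to -0.43) lie farther from 0 than those of *Lin54*, *Mybl2* and *Foxm1*.

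The 5 genes that fell differed by degrees in how far H4 lay from H3. In *Rbl1* and *Lin9* both hairpins gave nearly the same level, with H4 minus H3 at 0.08 and -0.16. In *Lin54*, *Mybl2* and *Foxm1* H4 minus H3 was -0.55, -0.74 and -1.11. H4 lay below H3 in 58.9% of all genes and in 54.6% of the genes called lower. With 1 array a line the difference between the hairpins has no replicate check. In all 5 genes the scrambled control was the lowest and the untransduced cells the highest control line, orders found in 34.2% and 31.8% of all genes. The control lines therefore differed among themselves along the same order in each of the 5.

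**Figure D3:**
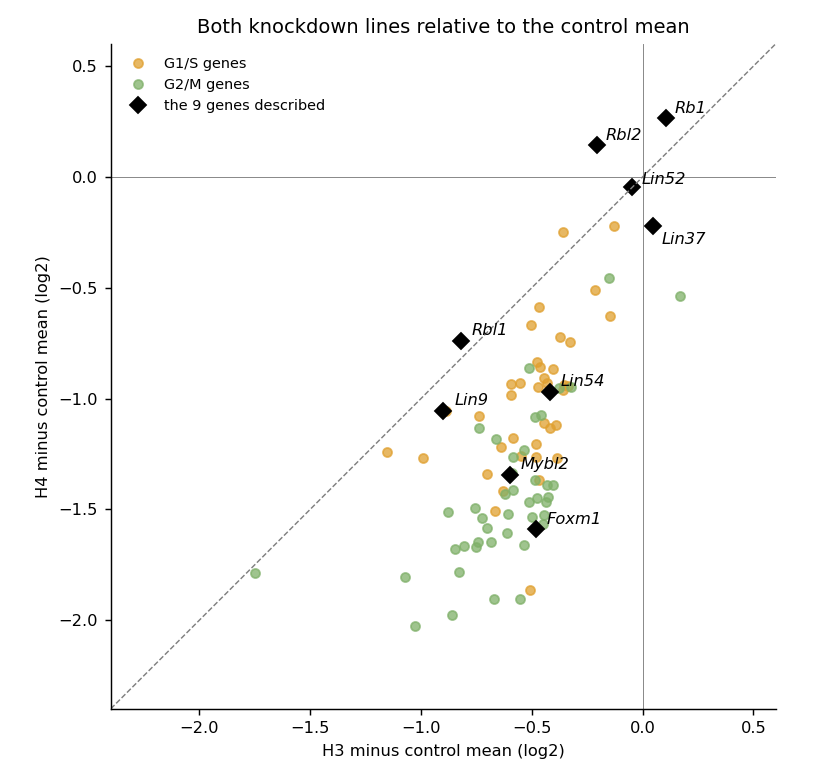
Log2 difference from the control mean in H3 (horizontal axis) and H4 (vertical axis), with the 9 genes as black diamonds, G1/S genes in orange, G2/M genes in green and equal values on the dashed line. *Rbl1* and *Lin9* lie near the dashed line, and *Foxm1* (-0.48 in H3, -1.59 in H4) lies among the G2/M genes below it. Both axes share the control mean.

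The genes whose profiles over the 5 arrays came closest to each of 4 members were found by the root mean square distance of log2 values centred on each gene's own mean. For *Foxm1* these were *Prc1* (distance 0.04), *Tacc3* (0.05), *Pbk* (0.06), *Iqgap3* (0.06) and *Esco2* (0.07), where the SD of *Foxm1* over the arrays was 0.71. *Prc1* and *Tacc3* act at the mitotic spindle, and *Esco2* acetylates cohesin. For *Mybl2* they were *E2f8* (0.06), an atypical E2F repressor, *Gins1* (0.07), a subunit of the replicative helicase, *Mtfr2* (0.07), *Tigit* (0.08) and *Smc2* (0.08), a condensin subunit. *Rbl1* had *Atm*, the DNA damage kinase, as its nearest gene at 0.02, followed by *Creld2*, *Mcur1*, *Atp10a* and *Aven* at 0.05 to 0.06. *Rbl2* was nearest to *Pitpnc1*, *Stard4*, *Skp1*, *Sqle* and *Selenok*, at 0.04 to 0.05 beside its own SD of 0.19. With 5 arrays and 19938 genes, close profiles are a description only.

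Among the E2F and DP partners of the pocket proteins 3 of 10 genes fell and none rose, beside 7.61% and 4.34% of all genes. *E2f4*, the E2F of the DREAM complex, had 8.99 (H3) and 9.20 (H4) in the knockdown lines, against 9.67 (H5), 9.51 (scrambled) and 9.84 (untransduced) in the control lines (log2 fold change -0.58, adjusted p = 0.292 from limma). *E2f7* (-0.93) and *E2f8* (-1.02), atypical repressors, were the other two that fell. The activators *E2f1* (-0.27), *E2f2* (-0.24) and *E2f3* (-0.22) did not pass. *E2f5* (-0.33) and *E2f6* (-0.65) did not pass either, although the change of *E2f6* was larger than that of *E2f4*. The DP partners *Tfdp1* (-0.06) and *Tfdp2* (-0.07) did not pass. The median of the list was -0.30, and 2 passed without H5 or without the untransduced cells.

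Of 9 cyclins and kinases that phosphorylate pocket proteins 4 fell and none rose, with a median of -0.33. For this list and the CDK inhibitors below, the shares over all genes were 7.61% that fell and 4.34% that rose. *Ccne2* (cyclin E2) was at -1.68, *Ccna2* (cyclin A2) at -1.17, *Cdk6* at -0.91 and *Cdk2* at -0.74. *Cdk4* (-0.07) and the D cyclins *Ccnd1* (0.05), *Ccnd2* (0.10) and *Ccnd3* (-0.07) did not pass. *Ccne1* (cyclin E1, -0.33) did not pass either, with H3 at 10.08 above the scrambled control at 9.84. Of 6 measured CDK inhibitors, which keep those kinases from the pocket proteins, *Cdkn2c* fell (-0.36) and none rose, and *Cdkn2c* did not pass without H3, without H4, without H5 or without the scrambled control. *Cdkn1a* was not analysed here.

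Of 13 measured genes of corepressors and their partners 5 fell and none rose, beside 7.61% and 4.34% of all genes, and the median was -0.27. This list included *Arid4b* (-1.20), the target of the hairpins, and without it 4 of 12 fell with a median of -0.23. The 4 were the deacetylase genes *Hdac3* (-0.34) and *Hdac1* (-0.27), *Sin3a*, the scaffold of the complex to which ARID4B belongs (-0.28), and *Arid4a* (-0.19). Without H5 or without the untransduced cells 2 passed with *Arid4b* counted and 1 without it. None of 3 paralogs of the members passed, with *Mybl1* (A-Myb) at -0.53, *Myb* at 0.13 and *Tesmin*, the paralog of *Lin54*, at the same value on every array.

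Selected G1/S and G2/M genes known to be bound by these complexes were counted as a pair of lists. Both lists were chosen with earlier results of these data known. The study had already reported *Tpx2*, *Kif2c*, *Cdc25c* and other listed G2/M genes as lower in H3 and H4, so that the counts are a description. Over all genes 7.61% fell and 4.34% rose. Of 38 measured G1/S genes under E2F and pocket proteins 35 fell and none rose, with a median of -0.76 beside 0.03 over all genes, and *Hells*, a chromatin remodeler, at -1.20, *Fen1*, a flap endonuclease, at -1.13 and *Rrm2*, a subunit of ribonucleotide reductase, at -1.09 had the lowest values among those called. Of 43 measured G2/M genes under MuvB, B-Myb and FoxM1 42 fell and none rose, with a median of -1.01, and *Kif2c* (-1.77), *Kif4* (-1.53) and *Cdc25c* (-1.44) had the lowest values. *Gtse1* (-0.18) was the G2/M gene that did not pass. Relative to the control mean the G2/M median was -0.59 (H3) and -1.49 (H4) in the knockdown lines, against 0.02 (H5), -0.15 (scrambled) and 0.14 (untransduced) in the control lines, and the G1/S median was -0.47 (H3) and -0.97 (H4) in the knockdown lines, against 0.06 (H5), -0.26 (scrambled) and 0.20 (untransduced) in the control lines.

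Most of these genes had the order of the lines seen in *Foxm1* and *Mybl2*. H4 lay below H3 in all 43 measured G2/M genes and in 37 of 38 G1/S genes, beside 58.9% of all genes. The scrambled control was the lowest control line in 40 of the G2/M and 38 of the G1/S genes, beside 34.2% of all genes. The counts of genes that fell were 2 G1/S and 27 G2/M genes without H4, 10 and 19 without H5, and 13 and 17 without the untransduced cells, and 28 G2/M genes without the scrambled control. In the unmoderated equal-variance test 9 G1/S and 17 G2/M genes fell. Promoter motifs were counted by window, with 43 windows of 39 G2/M genes and 41 windows of 34 G1/S genes. In the G2/M windows the CHR letters occurred in 32 (74.4%) and the E2F letters in 7 (16.3%). In the G1/S windows the CHR letters occurred in 6 (14.6%) and the E2F letters in 28 (68.3%). The shares over all promoter windows were 19.2% and 9.57%. The added core occurred in 32.6% of the G2/M and 29.3% of the G1/S windows, beside 11.3% of all windows. Both lists were chosen as genes known to be bound by these complexes, so that these shares are a description.

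**Figure D4:**
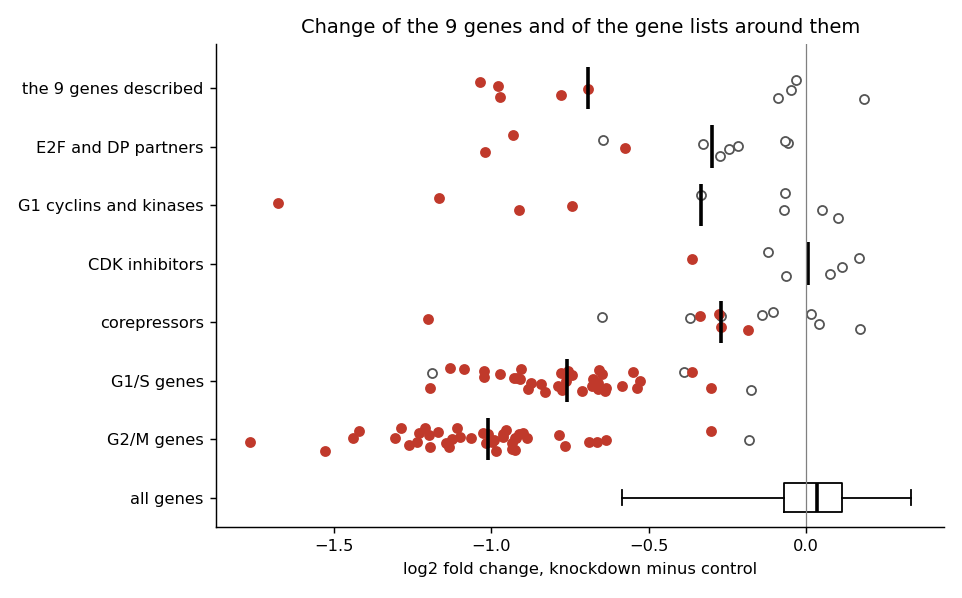
Log2 fold change, knockdown minus control (horizontal axis), of the 9 genes and of the genes around them, with 1 point per gene, filled where the gene was called lower at an unadjusted p under 0.05, and a vertical bar at each median. The box for all genes spans the quartiles and its whiskers reach percentiles 2.5 and 97.5; the G2/M genes have a median of -1.01 and all genes 0.03.

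Markers of other cell types were measured beside these genes. Of 9 measured leukocyte markers *Cd68* (log2 fold change 0.95) and *Csf1r* (0.20) were higher and none was lower, and their summed linear level was 2621 to 2729 in the knockdown lines, against 1579 to 1741 in the control lines. Without *Cd68* the other 8 summed to 629 to 740 in the knockdown lines, against 603 to 700 in the control lines. *Ptprc*, which marks all leukocytes, lay at 4.98 to 5.15, *Adgre1* at 4.53 to 4.70 and *Csf1r* at 5.26 to 5.54, below the median of every array. *Csf1r* did not pass without H5, without the scrambled control or without the untransduced cells. *Cd68* lay at 9.93 to 10.96 and *Cd14* at 8.10 to 8.69, above the median of every array. The log2 fold change of *Cd14* was -0.01, and its cohorts overlapped. None of 11 fibroblast and endothelial markers passed, with a summed level of 962 to 1076 in the knockdown lines, against 899 to 943 in the control lines. Their part in the values of the 9 genes was not tested.

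Across the alternatives *Rbl1* and *Lin9* were the genes called in every one, and *Lin54*, *Mybl2* and *Foxm1* were not.

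**Figure D5:**
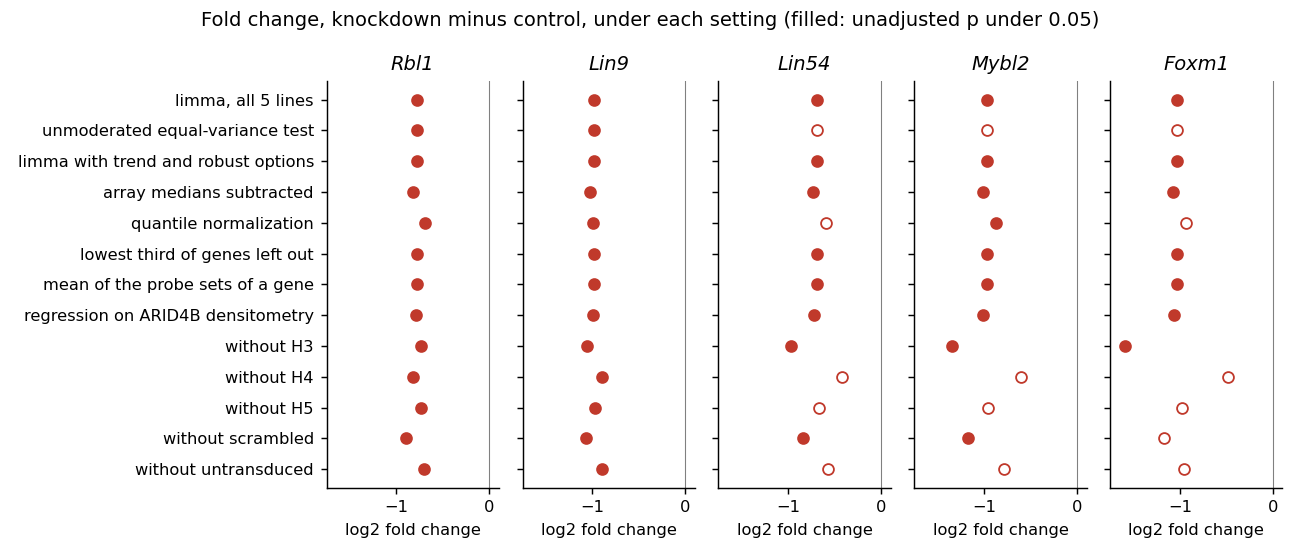
Log2 fold change, knockdown minus control (horizontal axis), of the 5 genes that fell under the limma fit and the 12 alternatives (rows); filled points passed an unadjusted p under 0.05. All points lie below 0, *Lin9* between -1.07 and -0.89 and *Foxm1* between -1.59 and -0.48.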

How the data were processed

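Each of the 5 lines was hybridised to 1 single-colour array. The authors normalized the arrays, and the submitters' processing notes name RMA and Partek; the deposited values are log2 expression values for 35556 probe sets. The platform annotation gave 1 symbol to 21789 of them and several to 1621, which are not named. Symbols were updated by gene ID through a RefSeq table (21698 found), and each of 19938 genes was represented by its probe set of highest mean.

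Lines were assigned to cohorts from the labels. The test of knockdown against control was lmFit and eBayes of limma (version 3.58.1, R version 4.3.3), with 1.58 prior and 3 residual degrees of freedom and p-values adjusted over all genes by Benjamini-Hochberg, and it was tested on simulated data. In each list the 3 lowest and 2 highest called genes were named, as were the 5 nearest genes of 4 members; genes named beyond this rule were chosen after their values had been seen, as were the counts without *Arid4b* and the sums without *Cd68*. The members, the 11 gene lists and the tests were chosen with earlier results of these data known. Alternatives, 12 in all, comprised a per-gene unmoderated equal-variance test (the methods name ANOVA), trend and robust options of limma, median subtraction, quantile normalization, a filter on the genes of lowest mean, averaged probe sets, regression on densitometry and the omission of each line, which takes a lone knockdown line to vary as the control lines do. Figures were drawn with matplotlib 3.10.9.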

Additional observations from a re-analysis of the deposited data

How the results depend on the processing

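With the unmoderated equal-variance test 835 genes were lower, 2 of the 9 genes (*Rbl1* and *Lin9*), no CDK inhibitor, 9 G1/S genes and 17 G2/M genes. With array medians subtracted 548 genes were higher, and 5 E2F and DP partners and 8 corepressors (*Arid4b* included) were lower. After quantile normalization 1398 genes were higher and 3 of the 9 genes lower. Over the fits that leave out 1 line, 776 to 1986 genes were lower and 408 to 4901 higher, the last without H4. The lower counts were 2 to 5 of the 9 genes, 2 to 4 E2F and DP partners, 3 to 5 cyclins and kinases (0 to 1 higher), 0 to 1 CDK inhibitors (0 to 3 higher), 2 to 5 corepressors, 2 to 35 G1/S genes and 17 to 41 G2/M genes. The difference of *Rbl1* and *Rbl2* was -0.98 to -0.61. Without H4 2 of the 9 genes were lower, likewise without H5 and without the untransduced cells, and 4 without the scrambled control. Of 108 refits of the 9 genes 87 kept direction and side of the threshold and 15 lost the call, in *Lin54*, *Mybl2* and *Foxm1*. The direction turned in 6, all in genes not called: *Rbl2* (0.0562 after quantile normalization, 0.14 without H3, 0.08 without the scrambled control, and -0.21 to 0.14 over the fits without 1 line), *Lin37* (0.005 after quantile normalization, 0.0453 without H4, and -0.22 to 0.0453 without 1 line) and *Lin52* (0.0015 after quantile normalization). The cause was not tested. No paired analysis was possible because the labels give no replicate numbers or pairing.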
